A study of Homo sapiens with 2 samples.

Results

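The genes of MHC class I antigen presentation were described by all peaks of both histone mark lists that lay on the gene bodies of 9 members or within 10 kb either side, in RefSeq GRCh38 coordinates. The members were B2M, HLA-B, HLA-C, TAP1, TAP2, TAPBP, NLRC5, PSMB8 and CIITA, out of 19970 protein-coding genes in the RefSeq table. Their windows held 34 of the 64784 H3K27ac peaks and 42 of the 139511 H3K4me1 peaks used. The cells were the enzalutamide-resistant C4-2B EnzR line, made by growing C4-2B, a human prostate cancer line derived from LNCaP, for at least 6 months with enzalutamide, an antiandrogen drug. CUT&Tag, in which an antibody guides a transposase to tag DNA at marked nucleosomes, was done on 100000 cells per library with 14 PCR cycles. There was 1 library for H3K27ac, a mark of active promoters and enhancers, and 1 for H3K4me1, a mark of enhancers and promoter flanks. The samples hold no replicate, parental line or background library, so nothing below compares the resistant cells with other cells, and no p-value for a difference is given.

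MHC class I molecules show peptides from inside the cell to CD8 T cells. A polymorphic heavy chain, such as that encoded by HLA-B or HLA-C, pairs with the invariant light chain beta-2 microglobulin from B2M. Peptides are cut by the proteasome, whose interferon-inducible subunit LMP7 comes from PSMB8, and are carried into the endoplasmic reticulum by the transporter made of TAP1 and TAP2. Tapasin, from TAPBP, holds the empty class I molecule at that transporter. NLRC5 is the transactivator of class I genes and CIITA is its relative for class II genes. Neither binds DNA by itself, and both act through RFX, CREB/ATF and NF-Y factors on the X and Y boxes. Tumours often lower this pathway, and interferon can raise it.

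The starts of 6 members are shown because the H3K27ac peaks described below cover most of them and because they hold the known letters of this pathway's control elements. Each line gives 250 bases before the listed start, 5′ to 3′ on the gene's own strand, from the RefSeq promoter table for GRCh38.p14. Capitals mark matches on either strand to the motifs ISRE (GAAA, any 2 bases, GAAA), GAS (TTC, any 3 bases, GAA), kappa B (GGG, any base, A, any base, TCCC), the Y box letters ATTGG and the X2 or CRE letters TGACG.
B2M, chr15:44711267-44711516, plus strand: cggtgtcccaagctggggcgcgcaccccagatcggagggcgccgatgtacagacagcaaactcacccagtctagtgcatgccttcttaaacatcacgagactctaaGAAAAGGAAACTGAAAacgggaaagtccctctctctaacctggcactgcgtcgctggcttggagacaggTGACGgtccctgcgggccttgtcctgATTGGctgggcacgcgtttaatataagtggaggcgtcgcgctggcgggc
HLA-B, chr6:31357180-31357429, minus strand: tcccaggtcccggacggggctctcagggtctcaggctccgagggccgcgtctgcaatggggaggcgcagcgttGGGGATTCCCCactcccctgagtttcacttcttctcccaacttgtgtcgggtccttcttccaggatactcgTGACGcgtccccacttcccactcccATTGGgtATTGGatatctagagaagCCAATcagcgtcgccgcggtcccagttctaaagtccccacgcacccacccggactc
HLA-C, chr6:31272093-31272342, minus strand: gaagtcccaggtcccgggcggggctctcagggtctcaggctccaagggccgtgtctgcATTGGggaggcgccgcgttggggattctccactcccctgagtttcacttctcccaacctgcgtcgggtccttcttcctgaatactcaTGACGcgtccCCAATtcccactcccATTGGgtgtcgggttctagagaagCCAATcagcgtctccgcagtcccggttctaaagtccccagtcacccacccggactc
TAP2, chr6:32838740-32838989, minus strand: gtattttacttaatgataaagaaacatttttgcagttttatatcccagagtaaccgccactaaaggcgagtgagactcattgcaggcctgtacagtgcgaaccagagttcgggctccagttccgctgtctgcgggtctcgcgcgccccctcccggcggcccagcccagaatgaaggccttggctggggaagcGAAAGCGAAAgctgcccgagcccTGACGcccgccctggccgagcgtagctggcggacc
TAP1, chr6:32853705-32853954, minus strand: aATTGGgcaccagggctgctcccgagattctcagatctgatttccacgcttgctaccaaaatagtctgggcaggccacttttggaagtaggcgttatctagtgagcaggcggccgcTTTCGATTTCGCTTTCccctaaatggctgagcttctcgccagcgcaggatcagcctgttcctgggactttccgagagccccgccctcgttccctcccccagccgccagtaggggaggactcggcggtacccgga
TAPBP, chr6:33314079-33314328, minus strand: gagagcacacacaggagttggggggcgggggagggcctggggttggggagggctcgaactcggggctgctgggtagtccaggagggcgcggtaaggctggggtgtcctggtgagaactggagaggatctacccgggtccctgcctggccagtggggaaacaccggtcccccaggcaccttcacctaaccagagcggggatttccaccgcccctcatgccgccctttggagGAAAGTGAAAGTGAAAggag
NLRC5 and CIITA are not in the promoter table. The other 7 members have 9 windows there, of 250 bases before and 50 after a start.

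The 3 genes of the class I molecule itself shared an arrangement of the X2 and Y box letters. TGACG was followed by ATTGG after 20 bases in HLA-B and HLA-C and after 21 bases in B2M, with the first base at -106, -105 and -75 from the start, where -1 is the base before it. This spacing, chosen after the sequences were seen, was found in 53 of 35116 promoter windows (0.151%). HLA-B also held the kappa B letters at -177 to -168, which 1.39% of windows hold, and which read on both strands there. No kappa B match was found in the HLA-C window. HLA-B and HLA-C are near copies, with 226 identical positions, 20 mismatches and 8 gap positions between the 250 bases shown (89.0% identity). Reads from one can therefore be placed on the other, or lost where the cells' alleles differ from the reference, and this was not tested for the peaks below.

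The ISRE letters, those of an element through which interferon acts, lay in 5 of the 7 members and in 3.57% of all windows. HLA-B and HLA-C had no match to these exact letters. Only exact matches were counted, so this does not show that the heavy chain genes lack such an element. Overlapping matches began at -144 and -138 in B2M, at -134 and -128 in TAP1 and at -20 and -14 in TAPBP, and TAP2 had a match at -58. In PSMB8 the match ran across the inner of its 2 listed starts. GAS letters were found in 1 window each of PSMB8 and TAP1 (7.66% of all windows). The single X2 letters (24.6% of windows) and Y box letters (34.6%) are common. A match describes the letters only, and no factor was measured.

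All 9 members had both marks somewhere in their windows, beside 81.2% of protein-coding genes with H3K27ac, 85.5% with H3K4me1 and 78.7% with both by the same rule. The windows held 1 to 11 H3K27ac peaks per member (median 4, against 2 over all genes) and 2 to 15 H3K4me1 peaks (median 4, against 4). Windows grow with gene length, and those of TAP1, TAP2 and PSMB8 overlap, so peaks there count for more than 1 gene. Per 10 kb of window, H3K27ac ran from 0.376 peaks at B2M and 0.428 at HLA-C to 1.67 at PSMB8 and 3.20 at TAPBP, with a median over all genes of 0.424. NLRC5 had the fewest H3K4me1 peaks for its length, 0.263 per 10 kb, above 21.9% of genes. CIITA had 1.55 per 10 kb, above 78.1% of genes. The CIITA count includes peaks at the starts of the neighbouring genes DEXI and CLEC16A. It also includes H3K4me1 peaks of 55 and 50 fragments beyond the far end of CIITA.

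Peaks of both marks lay within 1 kb of a listed start in all 7 members that have one. Over the 15811 protein-coding genes with a listed start, 64.8% had H3K27ac there, 67.5% H3K4me1 and 62.0% both. The 7 genes differed in depth more than in presence. Depth is given as the number of fragments piled up at a peak's summit, recovered from the deposited fold enrichment and p, with exact Poisson 95% intervals that cover counting error only. Whether the peak caller counted read pairs or reads, and how it treated PCR duplicates, is not given in the sources used here; duplicates would make these intervals too narrow. Among the 10244 starts with H3K27ac, the deepest peak had a median of 74 fragments and quartiles of 39 and 115. The 7 members had a median of 36 and a range of 21 to 123, and 4 of them were below the lower quartile. Among the 10666 starts with H3K4me1 the median was 36 fragments with quartiles of 22 and 56, and the members had a median of 32 and a range of 10 to 50. Since 1 library was made per antibody, levels were compared among genes within a mark and not between marks.

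B2M had the deepest H3K27ac start peak of the members. Its single peak (chr15:44711226-44712192) held 123 fragments (102 to 147) at a summit -106 bases from the start, with a fold enrichment of 17.4 as the authors' peak caller gave it. This was above 77.7% of the H3K27ac-marked starts. The peak covered all 300 bases of the promoter window, so the ISRE, X2 and Y letters printed above lay inside it. H3K4me1 was in the middle of its own range at B2M, with 35 fragments (24.4 to 48.7) at the start and 24 fragments in a further peak 629 bases downstream. B2M starts 127 bases from the listed start of PATL2, so the peak cannot be assigned to B2M alone.

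The heavy chain genes carried H3K27ac peaks of few fragments that were not narrow. HLA-C had 35 H3K27ac fragments (24.4 to 48.7) and HLA-B 30 (20.2 to 42.8), above 22.2% and 19.1% of marked starts. Their peaks were 1165 and 827 bp wide, against a median of 806.5 bp at marked starts, so the HLA-C peak was wider than 81.7% of them. H3K4me1 was shallower still against its own library. HLA-C had 14 fragments (7.65 to 23.5) at its start and 10 at 913 bases downstream. HLA-B had 10 (4.80 to 18.4), above 5.17% of marked starts. The upstream edge of the H3K27ac peak covered 232 of the 300 promoter bases in HLA-B and 269 in HLA-C, including the X2 and Y letters of both. Apart from its start, HLA-B had both marks at 1 upstream site, -9.94 kb from its start, with 11 H3K27ac fragments (chr6:31366906-31367353) and 16 H3K4me1 fragments. HLA-C had no other peak within 10 kb.

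**Figure D1:**
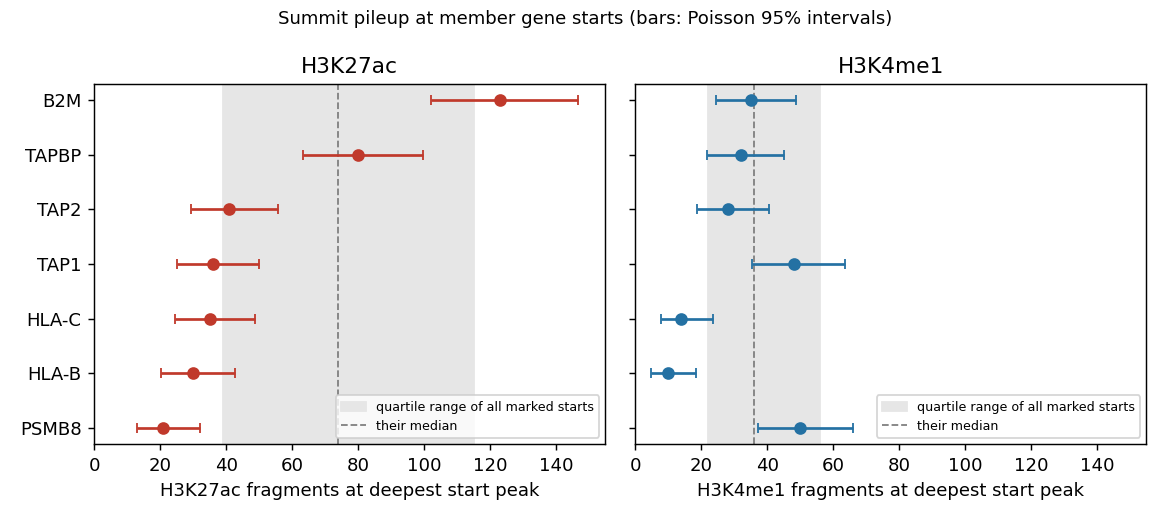
Fragments at the deepest peak within 1 kb of a listed start of 7 members (x axis), H3K27ac on the left and H3K4me1 on the right, with Poisson 95% intervals; grey bands span the quartiles of all marked starts and dashed lines their medians. B2M (123) and TAPBP (80) lie right of the H3K27ac median of 74, and the other 5 lie between 21 and 41.

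TAP2, PSMB8 and TAP1 lie side by side on chromosome 6 and share peaks. Their overlapping windows held 4 distinct H3K27ac and 7 distinct H3K4me1 peaks; all of these lay in more than 1 of the 3 windows. TAP2, which encodes a chain of the peptide transporter, had 41 H3K27ac fragments (29.4 to 55.6) at its start (chr6:32838560-32838912) and 37 in a second peak 456 bases downstream. Its H3K4me1 summits of 28 and 24 fragments lay 7 and 12 bases from those H3K27ac summits. TAP1, the other chain, had 36 H3K27ac fragments (25.2 to 49.8) in a peak of 1118 bp (chr6:32853103-32854220). That peak also spans the start of PSMB9, 0.488 kb away, which encodes another immunoproteasome subunit, so the genes cannot be told apart. TAP1 had 3 H3K4me1 peaks along it, of 48, 22 and 23 fragments from upstream to downstream, and the deepest was on the PSMB9 side. The TAP1 ISRE letters lay under H3K27ac and between the upstream and the middle H3K4me1 peaks.

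PSMB8 had the fewest H3K27ac fragments and the most H3K4me1 fragments of the 7 members, although its H3K27ac fold enrichment of 12.3 was in the middle of theirs. Its start held 21 H3K27ac fragments (13.0 to 32.1, above 13.7% of marked starts) and 50 H3K4me1 fragments (37.1 to 65.9, above 68.5%). Both summits lay within 6 bases of the outer listed start, and the 2 peaks covered all 300 bases of that promoter window. The H3K4me1 fold enrichment of 24.6 was the highest of the member starts. The inner start of PSMB8, whose window holds the ISRE letters, had 0 of 300 bases in a peak of either mark. The inner listed start of TAP1 likewise had 0 bases in peaks.

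Read from high to low by fragments, H3K27ac at the starts ran B2M, TAPBP, TAP2, TAP1, HLA-C, HLA-B and PSMB8. The intervals of B2M and TAPBP did not overlap, nor did those of TAPBP and TAP2. From TAP2 down, each gene's interval overlapped that of the next. For H3K4me1 the order was PSMB8, TAP1, B2M, TAPBP, TAP2, HLA-C and HLA-B, and every neighbouring interval overlapped. The order of H3K27ac was another by the fold enrichment of the authors' peak caller, which divides by the local background. It then ran B2M (17.4), HLA-B (13.9), TAP2 (13.1), PSMB8 (12.3), TAP1 (10.7), HLA-C (10.5) and TAPBP (8.67). TAPBP thus moved from the second place to the last, HLA-B from the sixth to the second and PSMB8 from the last to the middle, and B2M was first by both measures. The recovered background was 8.34 fragments at the TAPBP summit, 1.23 at HLA-B and 0.784 at PSMB8. By fold, H3K4me1 was highest at PSMB8 (24.6) and lowest at TAPBP (5.67), with HLA-B (7.57) next above it.

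**Figure D2:**
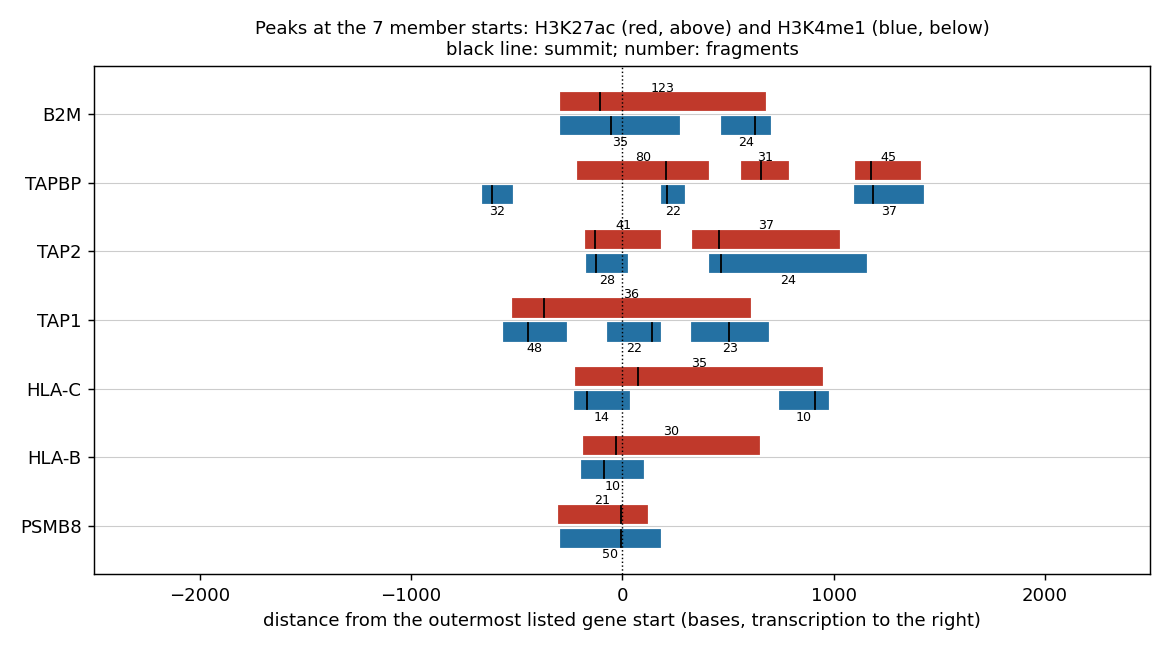
Peaks at 7 member starts against distance in bases from the outermost listed start, transcription running to the right; red bars are H3K27ac peaks, blue bars H3K4me1 peaks, black lines summits and numbers fragments. H3K27ac covers each start, with 123 fragments at B2M and 21 at PSMB8, and TAP1 carries 3 H3K4me1 peaks along 1 H3K27ac peak.

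TAPBP, the tapasin gene, had the most H3K27ac peaks in its window, 11, with 11 of H3K4me1. Its H3K27ac peak density was above that of 99.7% of protein-coding gene windows, and its H3K4me1 density above that of 96.9%. Its start peak held 80 H3K27ac fragments (63.4 to 99.6; chr6:33313673-33314287), and 45 and 31 fragments lay in further peaks inside the gene. At the start the H3K4me1 peaks were to the sides, with 32 fragments at -616 bases and 22 fragments at 209 bases downstream, and 0 of the 300 promoter bases were in an H3K4me1 peak. The ISRE letters of TAPBP, which end at -5, were under H3K27ac alone. The deepest H3K27ac in the window was at the far end of the gene. There 4 peaks of 105, 48, 104 and 92 fragments lay within 1 kb of the start of RGL2, a neighbouring gene, and 48 fragments lay at the start of ZBTB22 in the upstream flank. A further 80-fragment peak at -8.95 kb (chr6:33322776-33323348) lay at no listed start, with 47 H3K4me1 fragments. It was nonetheless left out as a peak at a gene end when super-enhancer-like regions were called, as described below. Not every gene has a listed start, so this peak may lie at the start of another gene. The peaks at RGL2 and ZBTB22 are in the window by its rule but lie at the starts of other genes. The recovered local background was 15.4 fragments at the 105-fragment summit, where the fold enrichment was 6.47. At the B2M summit the background was 6.14 fragments.

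**Figure D3:**
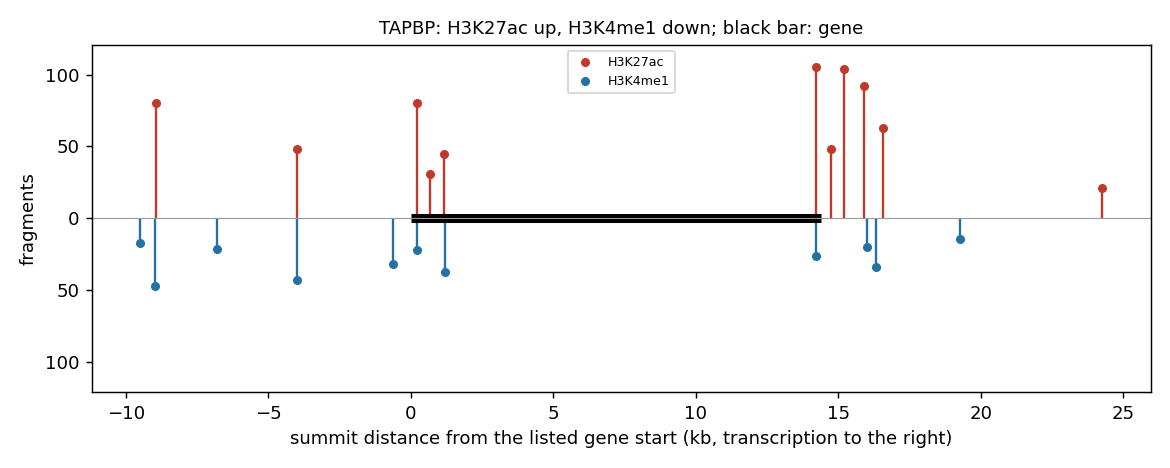
Fragments at the summits of all peaks in the TAPBP window against distance in kb from its start, with H3K27ac drawn up in red, H3K4me1 drawn down in blue and the gene as a black bar. The tallest H3K27ac summits (105, 104 and 92) stand beyond 14 kb, near the RGL2 start, and 80 fragments stand at the TAPBP start.

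NLRC5 was marked at its lower-coordinate end, which is known as its 5′ end, but shallowly. It had 21 H3K27ac fragments (13.0 to 32.1; chr16:56989211-56989823) and 17 H3K4me1 fragments (9.90 to 27.2) there. No peak of either mark was called within 1 kb of the other end. Inside the gene, away from this end, 6 H3K27ac peaks of 6 or 7 fragments lay 51.3 to 89.7 kb along it, and no H3K4me1 peak was called in that stretch. All 6 were therefore without H3K4me1. They come from 1 gene in 1 library, so no interval is given for that share. To be without H3K4me1 was common at this depth. Of all 18117 H3K27ac peaks of 4 to 7 fragments, 11059 did not overlap H3K4me1 and 39.0% did. These 6 peaks were shallow, with a deposited −log10 q of 3.40 to 4.90, and the CIITA window held a peak of 5 fragments of each mark. The remaining NLRC5 peaks, 12 and 18 H3K27ac fragments beyond the far end, lay at the start of CPNE2.

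CIITA differed from NLRC5 at its 5′ end, with H3K4me1 and no called H3K27ac. It had H3K4me1 peaks of 13 fragments (6.92 to 22.2; chr16:10866308-10866508) and 9 fragments there, and no H3K27ac peak within 1 kb. Within the gene 9 further H3K4me1 peaks were called, 6 of them without H3K27ac. The deepest away from the far end held 41 fragments 17.1 kb along (chr16:10883002-10883413) and overlapped an H3K27ac peak of 9 fragments. Another site, 5.68 kb along, had 19 H3K4me1 and 5 H3K27ac fragments. CIITA is known to have several promoters in its first part, and the table lists none of them. The deep H3K27ac in the CIITA window, 49 and 76 fragments, lay at the starts of DEXI and CLEC16A, 0.553 kb inside and 1.54 kb beyond the far end. Counting either end as a start would therefore have called CIITA marked by H3K27ac.

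**Figure D4:**
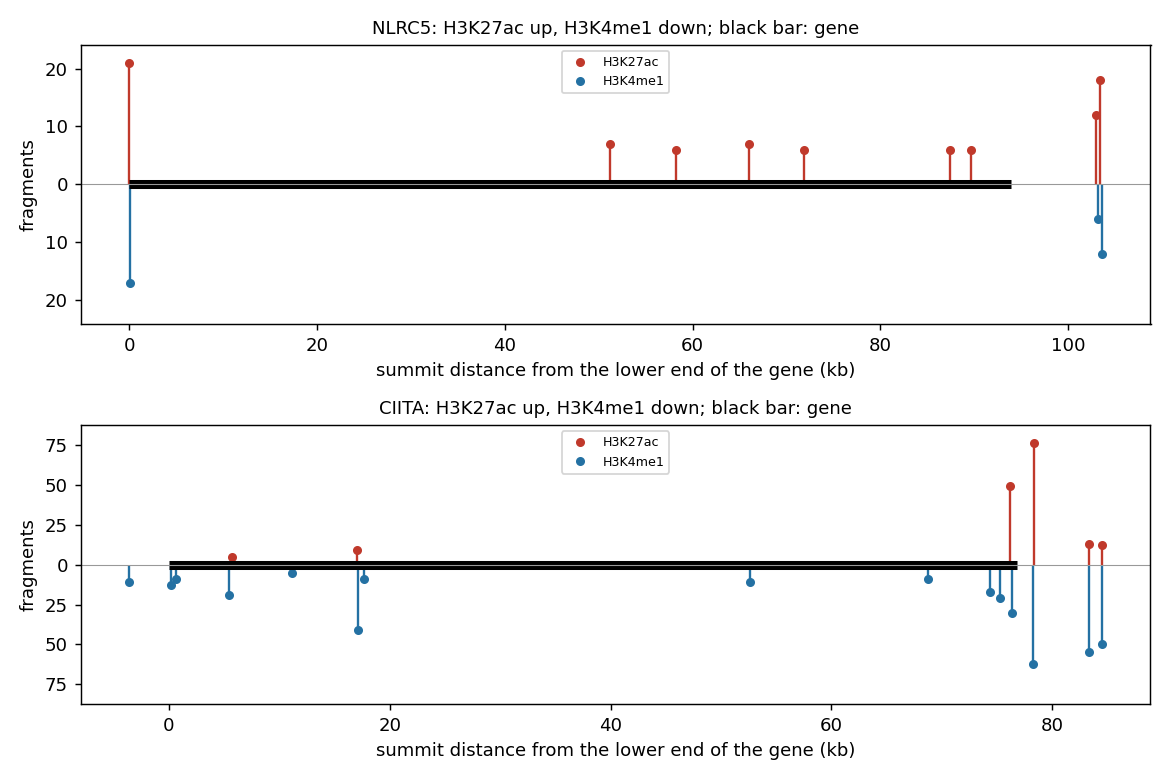
Fragments at the summits of all peaks in the NLRC5 and CIITA windows against distance in kb from the lower-coordinate end, with H3K27ac drawn up, H3K4me1 drawn down and the gene as a black bar. NLRC5 has 21 and 17 fragments at that end and 6 H3K27ac peaks of 6 or 7 fragments inside, whereas CIITA has H3K4me1 of 13 and 9 fragments at that end and no H3K27ac there.

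The 2 marks coincided at most H3K27ac sites of the members. Of the 34 distinct H3K27ac peaks 24 overlapped H3K4me1 (70.6%, exact Clopper-Pearson 95% interval 52.5 to 84.9), against 73.6% of all H3K27ac peaks. The 10 without it were the 6 inside NLRC5 and 4 around TAPBP. Of the 42 H3K4me1 peaks 28 overlapped H3K27ac (66.7%, 50.5 to 80.4), against 38.1% of all H3K4me1 peaks. Of the 14 that did not, 9 belonged to CIITA and 4 to TAPBP, and the last was a peak of 8 fragments inside TAP2, which the PSMB8 window also holds. Both intervals treat peaks as independent, but the peaks without overlap cluster in a few genes, and all peaks of a mark share its library. The intervals may therefore be too narrow, and they cover neither variation between genes nor variation between libraries. The windows are placed on genes, and 16 of the 42 H3K4me1 peaks lay at a member's start or 5′ end, so these peaks are not a sample of all peaks. Every peak in the windows of B2M, HLA-B, HLA-C and TAP1 overlapped the other mark. By position, 10 of the 34 H3K27ac peaks were at a start or 5′ end of a member, 10 more only at the start of another gene, and 14 at no listed start. Some of the 14 may lie at genes that have no listed start.

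The window edge decided a few of these peaks. Just inside it were the HLA-B site 9.73 kb from the gene (11 H3K27ac fragments) and a TAPBP peak at 9.71 kb (21 fragments). Just outside were an 84-fragment H3K27ac peak 10.4 kb past the end of B2M (chr15:44728561-44729662) and a 37-fragment peak 10.3 kb from TAPBP. Around the TAP genes the next H3K27ac peak held 99 fragments, 40.4 kb from TAP1.

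Super-enhancers, the subject of the study, are clusters of active enhancers with very dense H3K27ac. None of the 9 windows held a super-enhancer-like region. These were 1327 of 25235 regions made by joining H3K27ac peaks away from gene ends over gaps of up to 12.5 kb. They were called by ranking the regions by fold enrichment times width. The share of all protein-coding gene windows that hold one is not given here, so the result is not read as a trait of these genes. In 6 windows, those of B2M, HLA-C, TAP1, TAP2, TAPBP and PSMB8, no region remained to be ranked once peaks at gene ends were left out, so for these the result was fixed by that step. The best ranks in the other windows were 7473 for NLRC5, 8751 for HLA-B and 10913 for CIITA. The 84-fragment peak beyond B2M was itself called, at rank 665, as a region of 1 peak. The next nearest were 40.4 kb from TAP1 (rank 1184, 1 peak) and 64.9 kb from HLA-C (rank 381, 6 peaks). For TAPBP, CIITA and NLRC5 the nearest was 405 kb or more away. Ranked by fragments, 982 regions were called and again no window held any, but the region near TAP1 was no longer called.

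Other genes of the pathway were read from 7 lists, 46 of whose 54 genes have a listed start. H3K27ac lay at 35 of the 46 starts and H3K4me1 at 35, beside the 64.8% and 67.5% of all genes. Other class I genes were split. MICA (50 H3K27ac and 30 H3K4me1 fragments), a ligand of the NKG2D receptor, and HLA-F (19 and 11) had both marks. HLA-G and MICB had neither and no H3K27ac peak in their windows, although the MICB window held 4 H3K4me1 peaks, and HLA-E, without a listed start, had 1 H3K27ac and 2 H3K4me1 peaks in its window.

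Peptide loading and trimming genes had H3K27ac at 6 of 6 listed starts and H3K4me1 at 5, beside 64.8% and 67.5% of all listed starts. Their median was 81 H3K27ac fragments, against 74 among all H3K27ac-marked starts. CANX, the calnexin chaperone gene, had 277 (245 to 312), LNPEP 87 and the trimming enzyme gene ERAP1 and calreticulin gene CALR 81 each. ERAP2 had 8 fragments of each mark, and TAPBPL, a tapasin relative, 10 H3K27ac fragments and no H3K4me1 peak. PDIA3 has no listed start and had 3 H3K27ac peaks in its window. The immunoproteasome and proteasome activator genes PSMB9, PSMB10, PSME1, PSME2 and PSME3 all had both marks, beside 62.0% of all listed starts. PSME3 had 125 H3K27ac fragments, PSME2 96 and PSME1 95, against 21 at PSMB8. PSMB9, which shares the TAP1 peak, had 36 (25.2 to 49.8), an interval that overlaps that of PSMB8 (13.0 to 32.1). PSMB10 had 90 H3K27ac fragments and 171 H3K4me1 fragments (146 to 199). PSMB5, the constitutive counterpart of PSMB8, had 98 H3K27ac fragments (79.6 to 119), an interval that does not overlap that of PSMB8. These contrasts are by fragments only. By fold enrichment, which orders the member starts differently, PSMB5 and the PSME genes were not compared with PSMB8. PSMB6 and PSMB7 have no listed start and had 6 and 5 H3K27ac peaks in their windows.

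Among regulators of class I transcription, 11 of 12 listed starts had both marks, beside 62.0% of all listed starts. Over the 12 starts, with the unmarked IRF8 counted as 0, the median was 88 H3K27ac fragments. The median of 74 among all H3K27ac-marked starts leaves unmarked starts out. ATF1 had 200, CREB1 153 and NFYC 141, and the others, RFX5, RFXAP, RFXANK, NFYA, IRF1, IRF9, NFKB1 and RELA, ranged from 33 at IRF9 to 101 at NFKB1. IRF8, a factor of blood cells, had neither mark at its start. NFYB and IRF2 have no listed start. The listed starts of the partners through which NLRC5 and CIITA reach DNA were thus marked. The RFX genes had 74 to 87 H3K27ac fragments, near the median of 74 among all marked starts. NLRC5 had 21 at an end that is not a listed start, with a fold enrichment of 10.5. Whether these depths bear on class I transcription was not tested. Interferon receptor and signalling genes had both marks at 8 of 8 listed starts, beside the same 62.0% of all listed starts. H3K27ac held 130 fragments at IFNAR1, 109 at IFNGR1 and 106 at JAK1, with the lowest values at SOCS1 (33), IFNGR2 (34) and TYK2 (38). JAK2 and STAT2 lay between. IFNAR2 has no listed start and had 3 H3K27ac peaks in its window.

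Class II genes, the targets of CIITA, were mostly unmarked at their starts. H3K27ac lay at 2 of 10 listed starts and H3K4me1 at 3, beside 64.8% and 67.5% of all listed starts. Of the 10, 7 had neither mark, those of HLA-DRB1, HLA-DPA1, HLA-DPB1, HLA-DQA1, HLA-DOA, HLA-DOB and CD74, although CD74 had 3 H3K27ac peaks in its window. HLA-DMA had 35 H3K27ac fragments (24.4 to 48.7) and 32 H3K4me1 fragments, HLA-DQB1 12 and 16, and HLA-DMB had 28 H3K4me1 fragments without H3K27ac. HLA-DRA, without a listed start, had no peak of either mark in its window. Several of these genes are highly polymorphic, and reads from alleles unlike the reference may not have been placed, which was not tested. The same stretch of chromosome 6, the 2.05 Mb from HLA-C to TAPBP, held 81 other protein-coding genes with a listed start. H3K27ac lay at 51 of them (63.0%), with a median of 67 fragments among those marked.

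**Figure D5:**
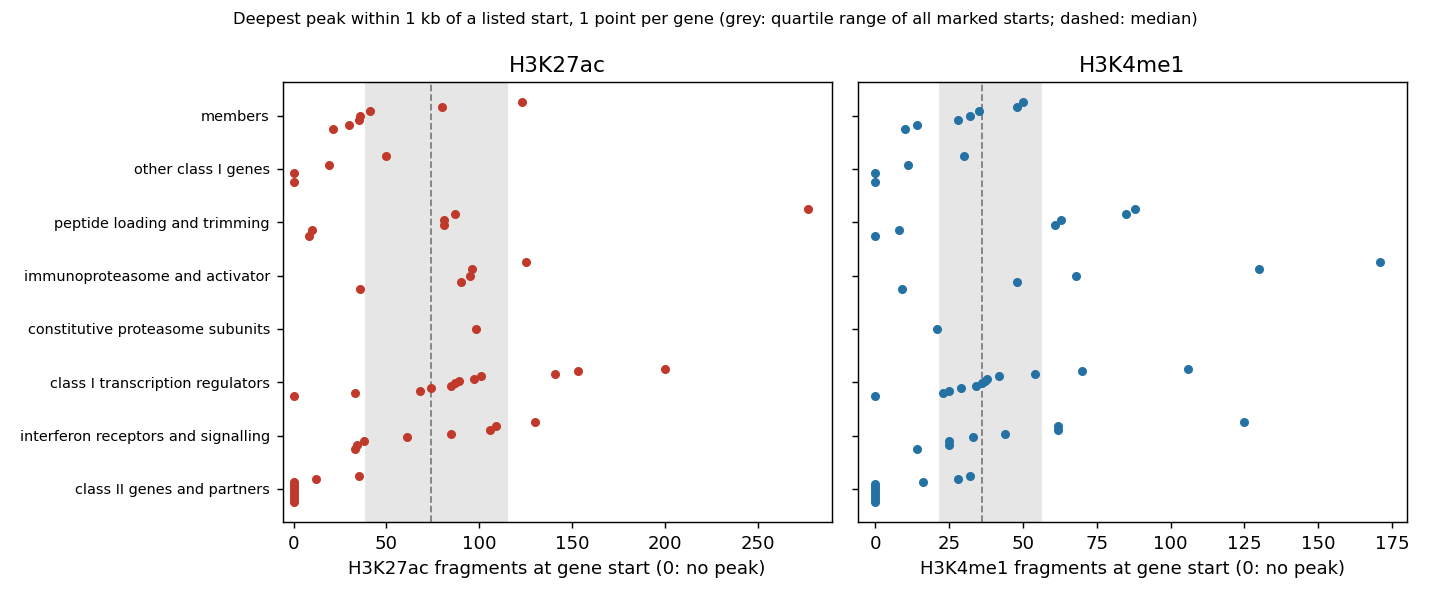
Fragments at the deepest peak within 1 kb of a listed start for each gene of the members and of 7 pathway lists, 1 point per gene with 0 for no peak, H3K27ac left and H3K4me1 right; grey bands span the quartiles of all marked starts. Class II genes stand at 0 in 8 of 10 cases for H3K27ac, and CANX reaches 277.

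The labelled cell type was checked against marker genes. The 6 prostate markers KLK3, KLK2, HOXB13, TMPRSS2, FOXA1 and KRT8 had H3K27ac in their windows, with 4 to 10 peaks each. Of all protein-coding genes 81.2% had H3K27ac in the window. The 4 prostate markers with a listed start, KLK3, KLK2, FOXA1 and KRT8, had both marks there, beside 62.0% of all listed starts. Of 8 blood markers 7 had H3K27ac peaks in their windows, with at most 4 each, near the 81.2% of all protein-coding genes. None of the 3 with a listed start, PTPRC, CD3D and CD79A, had either mark there, against 64.8% of all listed starts with H3K27ac. Of 5 fibroblast markers 2 had H3K27ac in the window, and COL1A2, DCN and LUM had none of either mark. PDGFRA, the 1 fibroblast marker with a listed start, had 24 H3K4me1 fragments (15.4 to 35.7) and no H3K27ac peak there.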

How the data were processed

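The data were 2 deposited peak lists, 1 per library. The submitters' processing notes name BWA, MACS2 and hg38; settings and any background library are not given in the sources used here. Per the labels, the secondary antibody was rabbit anti-mouse. The deposited values are a fold enrichment ratio at the summit, -log10 p and -log10 q, and a score that was not used. Of 64850 H3K27ac and 139692 H3K4me1 peaks, those on the autosomes and X were kept. The summit pileup k was solved from the deposited fold, (k + 1) / (background + 1), and p, the Poisson chance of more than k. It came out whole for 99.94% and 99.98% of peaks (within 0.001 in -log10 p or a relative 0.0001), and the step was tested on simulated data. Total depth is unknown. Overlap meant 1 shared base or more. Starts came from the RefSeq promoter table (15811 of 19970 genes). The text names the 9 members, the pathway list genes (values for the 3 deepest in H3K27ac and any without marks; others were chosen after they were seen) and neighbours that share a peak. Members and lists were chosen with earlier results of these data known. A few genes of the lists are not reported here. Alternatives varied window, threshold, overlap and start rule. Python 3.11.15, pandas 2.3.3 and scipy 1.17.1 were used.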

Additional observations from a re-analysis of the deposited data

How the results depend on the processing

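With the gene bodies alone, without flanks, 21 H3K27ac and 26 H3K4me1 peaks remained in the windows, fewer because the windows are shorter. In place of pileups, the deposited fold enrichment had a median over the 7 member starts of 12.3 for H3K27ac and 13.5 for H3K4me1, which is another unit and orders the H3K27ac starts differently. The other 48 of 52 recomputed counts, shares and medians moved by less than 1.5 times or stayed within their exact intervals. The H3K27ac share with H3K4me1 ran from 61.8% to 80.8%, and the H3K4me1 share with H3K27ac from 52.4% to 69.4%. Within 250 bases of the start the deepest TAP1 H3K4me1 peak had 22 fragments, and with either end counted TAPBP had 105 H3K27ac fragments, at the RGL2 end. Depth limits what is absent: 4 fragments were the least at any peak, and a mark not called is not shown to be missing. No paired analysis was possible because each antibody has 1 library and no result comes from a test.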
